A study of Mus musculus with 8 samples.

Results

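The 44 genes described here belong to the Atf4 branch of the stress response and to the unfolded protein response of the endoplasmic reticulum (ER). They were taken by symbol from a fixed list, and all 44 were found among the 23284 gene entries of the deposited expression table. The table comes from RNA sequencing of mouse embryonic stem (ES) cells of mixed strain background, from 2 clonal lines. Clone 6 carries a Ctcfl transgene that doxycycline induces, and clone 7 has no transgene. Each line was grown with 2 µg/ml doxycycline or with none, for 48 h after transfer from fibroblast feeders to dishes without them, which gives 4 groups. Each group was made of 2 libraries, 1 from each of 2 experiments, and the deposited level is 1 FPKM value per gene and group (fragments per kilobase of transcript, scaled to sequencing depth), so the levels below carry no SD and no n. With 1 clone per genotype, the transgene and clonal variation cannot be told apart in a comparison of the lines.

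Atf4 is a transcription factor whose mRNA is translated better when the initiation factor eIF2 is phosphorylated. The kinases that do this include Eif2ak3 (PERK), which senses unfolded protein in the ER, and Eif2ak4 (GCN2), which senses uncharged tRNA. Atf4 then turns on genes for amino acid synthesis, amino acid uptake and tRNA charging, and, with the factor Ddit3 (CHOP), genes of feedback and cell death. The other arms of the unfolded protein response run through the sensor Ern1 (IRE1), which splices the Xbp1 mRNA, and through Atf6, and both raise the chaperones and degradation factors of the ER. Much of this control acts on translation, splicing and protein cleavage, which gene-level FPKM does not measure. Doxycycline is also known to inhibit protein synthesis in mitochondria, and mitochondrial stress is one of the inputs of the Atf4 branch, and both clones received it.

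Some of the promoters hold motifs known from this response. Promoter windows from RefSeq (build GRCm38.p6, from 250 bases before the start to 50 bases after it) were found for 37 of the 44 genes, in 43 windows. The genes with no entry were Atf6, Cars, Manf, Nars, Slc7a3, Slc7a5 and Wars. On both strands, 4 motifs were searched. The C/EBP-ATF composite site, which Atf4 binds together with a C/EBP factor, was searched as TGATGNAA. It was matched in 10 of the 43 windows (23.3%), those of Aars, Asns, Atf3, Chac1, Fgf21, Gars, Herpud1, Slc7a11, Trib3 and Vldlr, against 3.97% of all 32851 windows of the same length. The ER stress element, through which Atf6 acts, was searched as CCAAT and CCACG with 9 bases between them and was matched in 5 windows (11.6%), those of Calr, Creld2, Hsp90b1, Hspa5 and Pdia6, against 0.119% of all windows. The shorter ER stress element II, searched as ATTGG and CCACG with 1 base between them, was matched at Herpud1, and the unfolded protein response element, TGACGTGG, at none of the 43 windows, against 0.0365% and 0.676% of all windows. The CCACG end of both ER stress elements is, on the other strand, part of the unfolded protein response element. A match is a run of letters and not a measured binding site.

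The stretches below belong to the 6 genes with the smallest deposited p in any comparison among those with a match upstream of the start, and they are shown so that the site can be read beside the gene's values. Capitals mark the matched motif, bases are written 5′ to 3′ on the gene's strand, and the site reads TTNCATCA where it lies on the other strand. Chac1 lies at chr2:119351009-119351096 (plus strand), Vldlr at chr19:27216780-27216867 (plus), Asns at chr6:7693210-7693272 (minus) and Atf3 at chr1:191183396-191183483 (minus). Calr lies at chr8:84847035-84847133 (minus) and Slc7a11 at chr3:50443614-50443719 (minus).
Chac1: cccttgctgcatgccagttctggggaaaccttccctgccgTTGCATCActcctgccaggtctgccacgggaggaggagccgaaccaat
Vldlr: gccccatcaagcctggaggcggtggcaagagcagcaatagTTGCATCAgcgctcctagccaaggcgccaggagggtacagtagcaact
Asns: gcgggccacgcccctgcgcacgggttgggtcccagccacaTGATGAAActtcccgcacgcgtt
Atf3: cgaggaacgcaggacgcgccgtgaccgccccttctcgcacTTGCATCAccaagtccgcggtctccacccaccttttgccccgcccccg
Calr: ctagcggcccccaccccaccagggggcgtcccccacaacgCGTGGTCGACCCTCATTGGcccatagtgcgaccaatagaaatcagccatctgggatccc
Slc7a11: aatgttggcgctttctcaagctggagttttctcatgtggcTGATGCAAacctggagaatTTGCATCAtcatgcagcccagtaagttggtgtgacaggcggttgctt
The match of Trib3 lies after the start and is not shown. In Slc7a11 the composite site occurs once on each strand, and in Calr the element lies on the strand opposite to the gene. At Hspa5 the matched ER stress element reads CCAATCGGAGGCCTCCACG and at Pdia6 it reads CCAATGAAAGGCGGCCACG.

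Library depth is unknown, since the file gives no counts. Pou5f1, the core ES cell factor, was at 1011 to 1116 FPKM in the 4 groups. Of the 4 markers of extended or visceral endoderm, Ttr was listed at 0 in all groups and Afp was at most 0.026 FPKM. Apoa1 was between 0.068 and 0.401 FPKM, and Amn between 2.04 and 2.53 FPKM. Other ES cell markers differed between the lines: of the 10, Nanog and Zfp42 were called higher and Sox2 and Fgf4 lower in clone 6, with and without the drug. Zfp42 was 3.11-fold higher without it and 4.39-fold with it. Of the 8 primitive endoderm markers, Lama1 was called lower in clone 6 in both comparisons. Foxa2 went the other way and was not called, at 0.906 FPKM in clone 6 against 0.244 FPKM in clone 7 without the drug. With the drug it was at 0.745 against 0.195 FPKM. Of the 4 such markers at 1 FPKM or more, 2 lay above and 2 below 0 without the drug, and 1 and 3 with it. For doxycycline in clone 6, Esrrb, Nanog and Zfp42 had an unadjusted p under 0.05 and none was called. The part of these differences in the values below was not tested. The 12 fibroblast markers, which feeder cells express, summed to 270 and 267 FPKM in clone 6 and to 207 and 212 FPKM in clone 7, with and without doxycycline. Much of this contrast came from Col1a1, at 140 and 132 FPKM in clone 6 and at 86.8 and 92.8 FPKM in clone 7. The transgene's own gene, Ctcfl, had levels of 0.995 and 0.403 FPKM in clone 6, with and without the drug, and at 0.498 and 0.513 FPKM in clone 7. In the authors' deposited table the clone 6 difference did not pass the threshold (p = 0.0062, q = 0.296). In these bulk samples, fewer cells of a type and less RNA per cell cannot be told apart.

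The 44 genes ran from under 1 FPKM to the level of the most abundant chaperones, and 43 of them reached 1 FPKM in at least 1 group. Their mean over the 4 groups was above 100 FPKM for 11 genes and under 10 FPKM for 14. The most abundant were ER chaperones. Hsp90b1, the Hsp90 paralog of the ER, was at 336 and 366 FPKM in clone 6 and 358 and 350 FPKM in clone 7, with and without doxycycline, an order kept in the values that follow. Calr, which encodes the lectin chaperone calreticulin, was at 350 and 374 FPKM and at 331 and 326 FPKM. Hspa5 (BiP), the chaperone that holds the sensors inactive, was at 287 and 304 FPKM and at 276 and 270 FPKM. These 3 chaperones ranked between 273 and 340 of all gene entries by mean FPKM. The disulfide isomerase genes Pdia6 (mean 139 FPKM) and Pdia4 (83.8 FPKM) and the secreted stress factors Creld2 (58.6 FPKM) and Manf (55.9 FPKM) followed. The ER genes Sdf2l1 (17.3 FPKM), Herpud1 (9.46 FPKM), which acts in degradation, and Dnajb9 (6.31 FPKM), a cochaperone of BiP, were lower.

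Atf4 itself was abundant, at 190 and 177 FPKM in clone 6 and 172 and 178 FPKM in clone 7. Serine synthesis genes stood as high. Psat1 was at 244 and 227 FPKM and at 227 and 213 FPKM, and Phgdh, which encodes the first enzyme of the pathway, at 203 and 208 FPKM and at 201 and 204 FPKM. Asns, which encodes asparagine synthetase and is a classic Atf4 target, was at 154 and 126 FPKM and at 131 and 118 FPKM. The mitochondrial one-carbon enzymes Shmt2 and Mthfd2 had means of 88.4 and 56.3 FPKM, and Psph, the last enzyme of serine synthesis, 30.8 FPKM. The tRNA synthetase genes formed a band from a mean of 51.5 FPKM for Cars to 214 FPKM for Gars. Among the transporters, Slc7a5 (97.3 FPKM), its partner Slc3a2 (87.8 FPKM) and the arginine carrier Slc7a3 (88.7 FPKM) lay close together. The cystine carrier Slc7a11 (10.5 FPKM) and the arginine carrier Slc7a1 (8.82 FPKM) were lower.

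The sensors, Ddit3 and most feedback and target genes were lower. Means were 8.24 FPKM for Eif2ak4, 5.34 FPKM for Eif2ak3, 4.69 FPKM for Atf6 and 2.77 FPKM for Ern1. Ddit3 was at 6.55 and 7.13 FPKM in clone 6 and at 9.01 and 14.5 FPKM in clone 7. Trib3, a pseudokinase that restrains Atf4, was at 11.3 and 10.3 FPKM and at 9.90 and 13.9 FPKM. Chac1, a glutathione-degrading enzyme downstream of Atf4, was at 3.48 and 3.67 FPKM and at 4.83 and 7.77 FPKM. In all 3 of these genes the clone 7 group without doxycycline was the highest of the 4. Among the other transcription factors, Cebpb (29.1 FPKM), Atf5 (28.1 FPKM) and Xbp1 (26.6 FPKM) had means well above that of Cebpg (4.66 FPKM). The factor Atf3 had a mean of 2.80 FPKM and the stress cytokine Gdf15 2.32 FPKM. Ppp1r15a, which encodes the phosphatase subunit that reverses eIF2 phosphorylation, was at 21.1 FPKM, and Vldlr, a lipoprotein receptor gene, at 1.33 FPKM. Fgf21, a secreted stress hormone of liver, was between 0.298 and 0.520 FPKM and was too low for the authors to test.

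**Figure D1:**
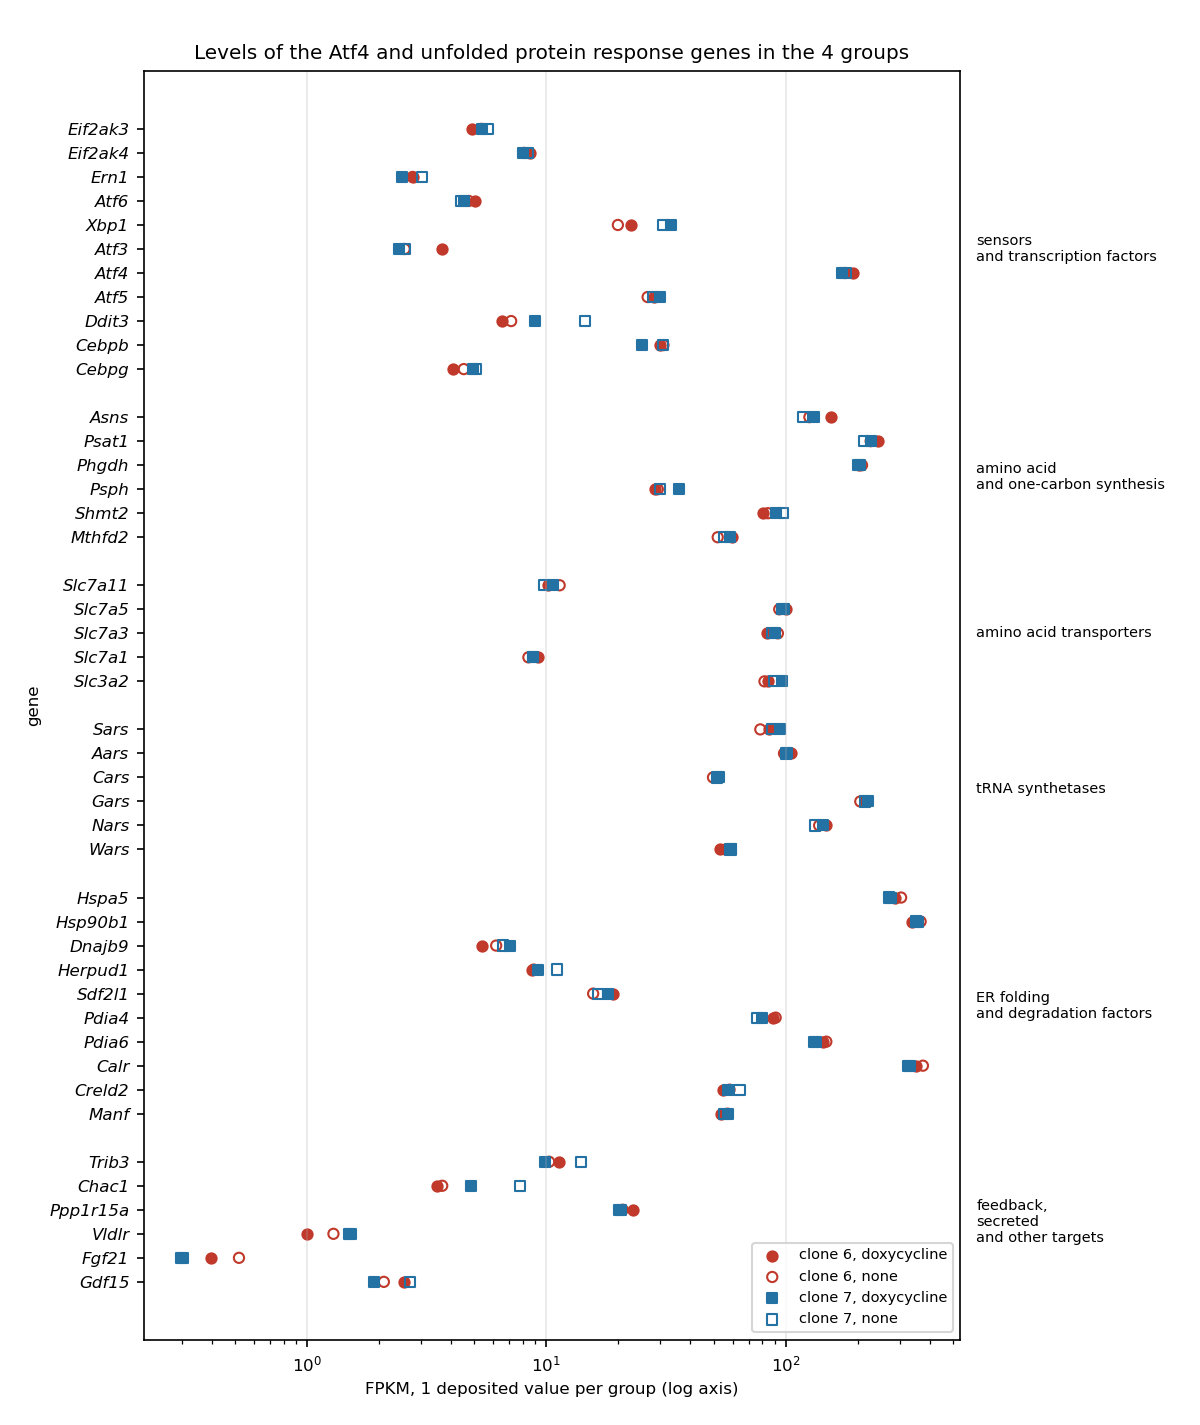
FPKM of the 44 genes (log axis) by role, 1 point per group: circles are clone 6, squares clone 7, filled points with doxycycline and open points without it. Points of a gene lie close together for most genes, while Chac1 and Ddit3 spread over more than 2-fold.

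The 4 group values of a gene seldom lay far apart. Of the 43 genes at 1 FPKM or more, 11 had a highest group value more than 1.25 times the lowest, where 38.9% of 12447 genes at that level did. The median ratio of highest to lowest was 1.16 for the 43 genes and 1.19 for the 12447. These genes are more abundant than most (median 51.5 against 10.7 FPKM), and among genes at 5 FPKM or more the medians were 1.15 for 39 of them and 1.16 for 8949 genes. The widest ratios were 2.23 for Chac1 and 2.22 for Ddit3, then 1.67 for Xbp1 and 1.52 for both Atf3 and Vldlr. The deposited locus of Ddit3 (chromosome 10, 127290793 to 127311786) overlaps that of Mars, a tRNA synthetase gene. Loci also overlapped others for Atf5, Shmt2, Aars, Pdia4 and Pdia6. Values of these 6 genes are uncertain, since the sources used here do not say whether counting used strand.

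The first comparison asked what doxycycline does in the line with the transgene. No gene of the 44 passed the threshold in clone 6. The amino acid genes Asns and Mthfd2 had ratios of doxycycline over none of 1.23 and 1.14, Atf4 of 1.08, and the chaperones Hspa5, Hsp90b1 and Calr of 0.944, 0.918 and 0.936. In the authors' deposited table, called genes are those tested with a q under 0.05, which held for 14 of 13003 genes (0.108%) and for 0 of the 43 tested genes of this group. At an unadjusted p under 0.05 there were 0 of the 43 and 1.08% of all genes. A ratio past 1.25-fold in either direction was found for 2 of the 43, Atf3 above and Vldlr below 1, against 9.43% of 12229 genes. The median log2 ratio was 0.0061 for the 43 genes, on the log2(FPKM + 1) scale, and 0.00087 for all 12229 genes at 1 FPKM or more. Log2 ratios above 0 were found for 7 of 11 sensors and transcription factors, 3 of 6 genes of amino acid and one-carbon synthesis, 3 of 5 transporters, 5 of 6 tRNA synthetases, 1 of 10 ER folding and degradation genes and 3 of 5 feedback and target genes, against 50.3% of all genes. The median was -0.09 for the ER folding and degradation genes in clone 6 and 0.03 in clone 7, where 7 of the 10 lay above 0, with 0 called in either.

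The smallest p of this comparison was that of Asns, with a ratio of 1.23 (95% interval 0.882 to 1.71, p = 0.09715 in the authors' deposited table). The interval here and below is approximate and comes from the deposited test statistic. A normal distribution of that statistic does not give the deposited p, so the interval and the p of a gene need not match. Atf3 was at 3.67 and 2.56 FPKM, a ratio of 1.44 (0.794 to 2.59, p = 0.1493 in the authors' deposited table). Vldlr had a ratio of 0.774 (0.449 to 1.34, p = 0.221 in the authors' deposited table). Every one of these intervals includes no change. The next 7 genes by p in the authors' deposited table were Sdf2l1 (ratio 1.21, p = 0.325), Mthfd2 (1.14, p = 0.325), Slc7a11 (0.890, p = 0.379), Slc7a3 (0.904, p = 0.421), Xbp1 (1.13, p = 0.422), Hsp90b1 (0.918, p = 0.447) and Dnajb9 (0.873, p = 0.467). All 43 had a q of at least 0.999578 in the authors' deposited table. The interval lay within a 2-fold change in both directions for 37 of the 43 genes. For Atf4 it ran from 0.819 to 1.41 and for Hspa5 from 0.680 to 1.31, so changes within these limits cannot be told from none.

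The second comparison asked what the drug does in the line without the transgene. No gene of the 44 passed the threshold in clone 7 either, nor did any other gene. The lowest ratios of doxycycline over none were those of Chac1, Ddit3, Gdf15 and Trib3. Chac1, at 4.83 and 7.77 FPKM, had a ratio of 0.621, and Trib3, at 9.90 and 13.9 FPKM, one of 0.710. Among the genes for amino acid and one-carbon synthesis, 4 had ratios above 1, such as Asns (1.11) and Psat1 (1.07), and 2 below it, Shmt2 (0.934) and Phgdh (0.984). Atf3 (0.942) and Ppp1r15a (0.978) were close to 1. By the authors' deposited table, 0 of 12908 genes were called (0%), 0 of the 43 among them, and 0 of the 43 and 0.108% of all genes had an unadjusted p under 0.05. A ratio past 1.25-fold was found for 4 of the 43, Chac1, Ddit3, Trib3 and Gdf15, all below 1, against 6.33% of 12177 genes in either direction.

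Chac1 had the smallest p of this comparison (95% interval of the ratio 0.358 to 1.08, p = 0.09035 in the authors' deposited table). Trib3 came next (0.470 to 1.07, p = 0.1051 in the authors' deposited table). The other 8 genes by p in the authors' deposited table were Psph (ratio 1.20, p = 0.281), Cebpb (0.820, p = 0.314), Herpud1 (0.832, p = 0.389), Gdf15 (0.708, p = 0.442), Asns (1.11, p = 0.443), Ern1 (0.829, p = 0.463), Creld2 (0.893, p = 0.485) and Slc7a11 (1.09, p = 0.534). Cebpb encodes a C/EBP factor that pairs with Atf4. Ddit3 had a ratio of 0.621, the same as Chac1, but an interval from 0.133 to 2.89 (p = 0.607 in the authors' deposited table). Its SE of 1.13 on the log2 scale was the largest of the 43, against a median of 0.30. Log2 ratios above 0 were found for 3 of 11 sensors and transcription factors, 4 of 6 genes of amino acid and one-carbon synthesis, 4 of 5 transporters, 6 of 6 tRNA synthetases, 7 of 10 ER folding and degradation genes and 0 of 5 feedback and target genes (median -0.49), against 58.1% of all genes. Of those above 0, Wars, Aars, Calr and Slc7a5 were below it when the median of all genes was subtracted. The median log2 ratio was 0.022 for the 43 genes and 0.021 for 12177 genes at 1 FPKM or more. The interval lay within a 2-fold change for 33 of the 43.

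**Figure D2:**
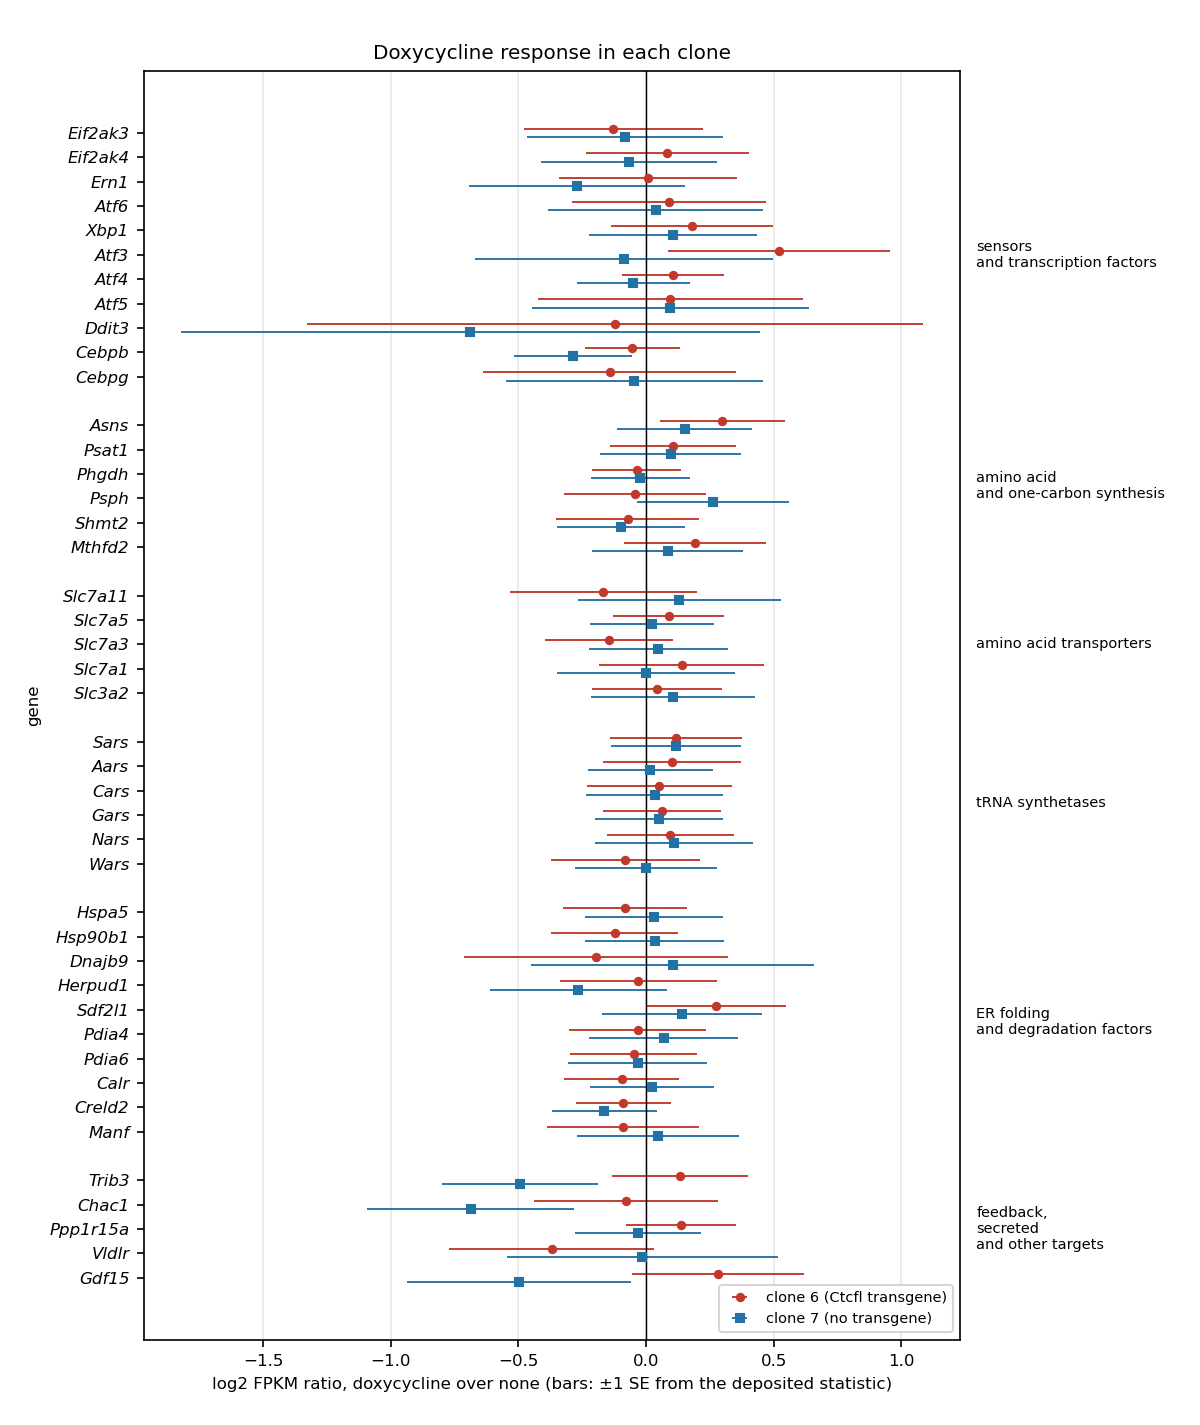
Log2 ratio of FPKM with doxycycline over none for the 43 tested genes, by role, in clone 6 (circles) and clone 7 (squares), with bars of 1 SE taken from the deposited test statistic. Most points lie within 1 SE of 0, and in clone 7 Trib3, Chac1 and Gdf15 lie below 0, where in clone 6 Trib3 and Gdf15 lie above 0 and Chac1 just below it.

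Whether the drug response differs between the lines was tested for each gene with a two-sided normal test on the deposited statistics, adjusted over 12638 genes by the Benjamini-Hochberg method. No gene of this group was called. Trib3 stood furthest from 0 for its error, with a log2 response of 0.13 in clone 6 and -0.49 in clone 7 (difference 0.63, SE 0.40). Gdf15 followed, at 0.28 and -0.50 (difference 0.78, SE 0.55), and Chac1, at -0.08 and -0.69 (difference 0.61, SE 0.54). The interval of the difference for Chac1 ran from -0.45 to 1.67, so neither equal responses nor a 2-fold difference can be told from these data. Of all genes 18 were called (0.142%), 0 of the 43 here, and 0 of the 43 and 0.459% of all genes had an unadjusted p under 0.05. The test is approximate, with 2 libraries a group. Where nothing differs, a calibrated test gives a p under 0.05 for a share of 0.05 of genes, far more than 0.459%. It is thus conservative here, and 0 calls say little about the members. In 25 of the 43 genes both lines had the same sign of response, 14 above and 11 below 0 (58.1%), against 54.0% of 8949 genes at 5 FPKM or more. Over the 43 genes the responses had a Pearson r of 0.06 and a Spearman rho of 0.15, against 0.12 and 0.15 over the 8949 genes, as a description across genes, which are not independent, of comparisons that share no library. The minimum was 1 FPKM for the 43 genes and 5 FPKM for the 8949, so the 2 sets are not matched in level. Without Chac1 and Ddit3, r over the rest was -0.08.

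The third comparison was between the lines in drug-free medium. None of the 44 genes passed the threshold, and those nearest to it, Xbp1 and Chac1, were both lower in clone 6. Xbp1, the transcription factor of the Ern1 arm (chromosome 11, 5520967 to 5525872), was at 19.9 FPKM in clone 6 and 30.8 FPKM in clone 7, a ratio of 0.646. Chac1 (chromosome 2, 119351242 to 119354327) was at 3.67 and 7.77 FPKM, a ratio of 0.473. Atf4 did not share this difference, at 177 and 178 FPKM. By the authors' deposited table, 179 of 13047 genes were called (1.37%) and 0 of the 43. At an unadjusted p under 0.05 there were 2 of the 43, Xbp1 and Chac1, and 6.59% of all genes. A ratio past 1.25-fold was found for 5 of the 43, Chac1, Ddit3, Xbp1, Trib3 and Gdf15, all below 1, against 21% of 12290 genes in either direction.

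Xbp1 had a 95% interval of 0.423 to 0.985 and Chac1 one of 0.296 to 0.755, both with p = 0.00585 and q = 0.285 in the authors' deposited table. With the p-values of this comparison adjusted alone, the smallest adjusted p of a member was 0.226. The other 8 genes by p in the authors' deposited table were Trib3 (ratio 0.738, p = 0.112), Pdia4 (1.20, p = 0.163), Calr (1.15, p = 0.247), Slc7a11 (1.16, p = 0.252), Herpud1 (0.801, p = 0.260), Shmt2 (0.863, p = 0.276), Hspa5 (1.12, p = 0.329) and Sars (0.897, p = 0.3735). The chaperone genes Pdia4, Calr and Hspa5 had ratios above 1 and Xbp1 one below it, and none of the 4 was called. Of all 10 ER folding and degradation genes, 6 had log2 ratios above 0 and 4 below it, with a median of 0.06. Ddit3 had a ratio of 0.491 with an interval of 0.120 to 2.00 (p = 0.434 in the authors' deposited table). The log2 ratio was below 0 for 28 of the 43 genes, with a median of -0.055 on the log2(FPKM + 1) scale, against -0.0019 for 12290 genes at 1 FPKM or more, of which 49.5% were above 0. Of the 11 tested fibroblast markers, 9 had log2 ratios above 0 and 2, Col6a1 and Thy1, below it, with 0 called. The part of these markers in the values here was not tested.

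The fourth comparison was between the lines in medium with the drug. Again no gene of the 44 passed the threshold. Xbp1 was lower in clone 6 in these libraries too, at 22.6 against 33.2 FPKM, and Chac1 was at 3.48 against 4.83 FPKM. The ratio of Chac1, 0.721, was nearer to 1 than without the drug. Psat1 and Phgdh had ratios of 1.07 and 1.01, and Atf4 one of 1.11. By the authors' deposited table, 199 of 13064 genes were called (1.52%) and 0 of the 43. Of the 43, 1 (Xbp1) had an unadjusted p under 0.05, against 7.9% of all genes. A ratio past 1.25-fold was found for 8 of the 43, with Atf3 and Gdf15 above 1 and Vldlr, Xbp1, Chac1, Ddit3, Dnajb9 and Psph below it, against 25.7% of 12314 genes. The fibroblast markers had 8 of 11 tested above 0 and 0 called, and their part in these values was not tested.

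Xbp1 had a ratio of 0.680 (95% interval 0.432 to 1.07, p = 0.02245, q = 0.640 in the authors' deposited table). This interval, from the test statistic, reaches 1 although the deposited p is under 0.05: a normal distribution of that statistic does not give the deposited p. Vldlr was at 0.999 FPKM in clone 6 and 1.50 FPKM in clone 7, a ratio of 0.664 (0.358 to 1.23, p = 0.0857 in the authors' deposited table). The other 8 genes by p in the authors' deposited table were Atf3 (ratio 1.52, p = 0.158), Psph (0.792, p = 0.163), Dnajb9 (0.762, p = 0.186), Asns (1.18, p = 0.222), Chac1 (0.721, p = 0.254), Cebpg (0.830, p = 0.297), Slc3a2 (0.874, p = 0.320) and Shmt2 (0.879, p = 0.369). The median log2 ratio of the 43 genes was 0.018 on the log2(FPKM + 1) scale, and that of 12314 genes at 1 FPKM or more -0.020.

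The clone comparisons without and with the drug share no library. Both compare the same lines, however, with libraries from the same experiments. Any lasting difference between the lines would appear in both, so agreement between the comparisons is not an independent check. Of the 43 genes, 28 had the same sign in both, 11 above and 17 below 0 (65.1%), against 73.8% of 8949 genes at 5 FPKM or more. Pearson's r over the 43 genes was 0.51 and Spearman's rho 0.48, against 0.80 and 0.69 over the 8949 genes, as a description across genes. Without Chac1 and Ddit3, which were chosen after their values were seen, r over the rest was 0.34. Trib3 and Gdf15 had opposite signs, with log2 ratios of -0.44 and -0.37 without the drug and 0.19 and 0.41 with it. Xbp1 kept a similar ratio in both, 0.646 and 0.680.

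**Figure D3:**
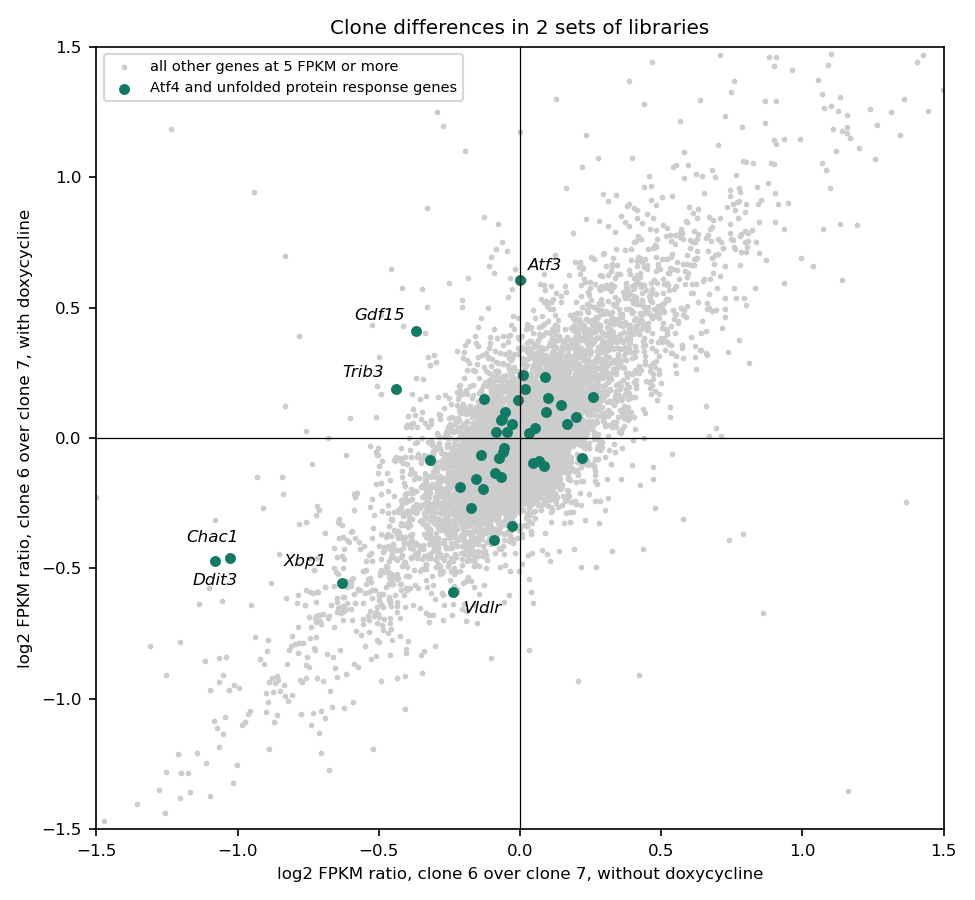
Log2 ratio of clone 6 over clone 7 without doxycycline (horizontal) and with it (vertical), for the 43 tested genes (dark points) and all other genes at 5 FPKM or more (grey), with axes limited to 1.5 on either side of 0. Most of the 43 lie near the centre, and Xbp1, Chac1 and Ddit3 lie below 0 on both axes.

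The wider pathway was followed in 8 further lists, with 149 of 151 genes in the table and 146 tested. Of these, 0 were called for doxycycline in either clone, and 2 of the 146 were called higher in clone 6 in both clone comparisons. That is close to the share called among all genes, 1.37% and 1.52%. The first was Slc1a5, which encodes a glutamine transporter. It was at 39.9 and 41.5 FPKM in clone 6 and at 17.7 and 18.6 FPKM in clone 7, with and without the drug. Slc1a5 was 2.23-fold higher in clone 6 without the drug (95% interval 1.62 to 3.08) and 2.25-fold with it (1.57 to 3.22), each at q = 0.00812 in the authors' deposited table. The second was Cdkn1a, the cell cycle inhibitor p21, which is best known as a target of p53. It was at 63.7 FPKM in clone 6 in both groups and at 35.9 and 35.4 FPKM in clone 7, a ratio of 1.80 without the drug (q = 0.0145) and 1.77 with it (q = 0.0462) in the authors' deposited table. The transporters among the 44 genes had ratios from 0.874 for Slc3a2 to 1.16 for Slc7a11.

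**Figure D4:**
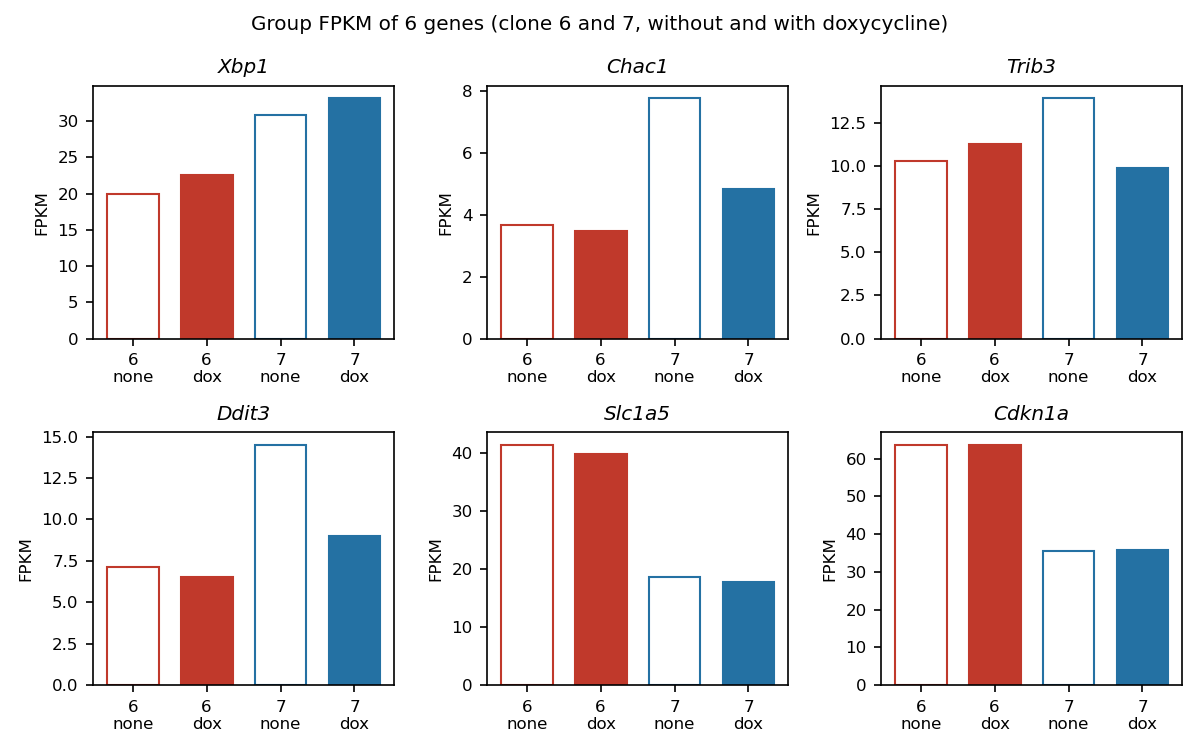
FPKM of 6 genes in clone 6 and clone 7, without (open bars) and with doxycycline (filled bars), 1 deposited value per bar and so no error bar. Xbp1 is lower and Slc1a5 and Cdkn1a are higher in both clone 6 groups, and Chac1, Trib3 and Ddit3 are highest in clone 7 without the drug.

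The 14 other cytosolic tRNA synthetase genes had median log2 ratios between -0.02 and 0.02 in the 4 comparisons, with 0 called in each. The 14 eIF2 and eIF2B genes had medians between 0.01 and 0.05 and the 15 serine and one-carbon genes between -0.06 and 0.03, with 0 called. The mitochondrial stress list, of chaperones and proteases such as Hspd1 and Lonp1, had medians of -0.02 for doxycycline in clone 6 and 0.06 in clone 7 over its 10 tested genes, and of -0.03 and -0.14 for clone 6 against clone 7 without and with the drug (5 and 7 of 10 below 0), with 0 called in each. Of 25 further ER chaperone and oxidoreductase genes, 24 reached 1 FPKM in each comparison and 0 were called. The medians of these 24 were 0.02 and 0.0007 for doxycycline in clone 6 and clone 7. For clone 6 against clone 7 they were 0.10 and 0.12, without and with the drug. The 24 genes of ER-associated degradation and translocation had medians between -0.04 and 0.05, and the 15 tested genes of further sensors and transcription factors between 0.02 and 0.11, with 0 called. The 29 tested Atf4 target and amino acid response genes, Slc1a5 and Cdkn1a included, had medians between -0.04 and 0.08. For doxycycline in clone 6 the median covers the 28 of them at 1 FPKM or more.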

How the data were processed

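RNA sequencing of 8 mouse ES cell libraries (75 bp single-end reads, per the labels' protocols) was deposited as 1 table, whose columns are named as Cuffdiff names them. TopHat2 2.0.8, Cufflinks 2.1.1 and build mm10 are named in the submitters' processing notes. The sources used here do not give their roles, the annotation or the strand setting. The authors deposited FPKM values per group, with both experiments joined. The authors' deposited test statistic was treated as a score. The deposited p-values reach down to 5e-05, and the deposited q-values matched Benjamini-Hochberg adjustment over all 78127 tests of the 6 comparisons to within 5.21e-07. Depth per library is unknown.

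Genes were called at a tested status and q under 0.05. Log2 ratios were computed from the deposited FPKM values, and approximate 95% intervals from SE = log2 ratio over test statistic. The 4 comparisons that change 1 factor were used. Medians used a pseudocount of 1 FPKM and a minimum of 1 FPKM in a group. Python 3.11.15, pandas 2.3.3 and scipy 1.17.1 were used. Deposited starts count from 0 and are given plus 1. The members and lists were chosen with earlier results of these data known. Members were named if called, or else the 10 with the smallest p in each comparison; wider-pathway genes were named if called. No member was called, so promoters were ordered by smallest p, a choice made after the values were seen. Whether the 2 libraries of a group were separate cultures is not stated beyond "biological replicates", and each came from another experiment. The p-values rest on these 2 libraries per group and on the authors' error model, which was not examined here. They do not cover the spread between clones.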

Additional observations from a re-analysis of the deposited data

How the results depend on the processing

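The counts of called members were 0 in each of the 4 comparisons and for the difference between responses. They stayed at 0 at a threshold of 0.10 and with p-values adjusted within a comparison. For the difference between responses they were also 0 among genes at 5 FPKM or more and with SEs from the deposited p-value. In that last run the smallest adjusted p was 0.999994, and 0 members had an unadjusted p under 0.05. A threshold of 0.01 and, in the 4 comparisons, a minimum of 5 FPKM could only give 0 again, so these runs are no check. The medians of log2 ratios moved by less than the median SE of the members under a pseudocount of 0.1 FPKM, other expression minimums, rescaling of each group to the same FPKM sum, and subtraction of the median of all genes. That SE is the error of a single gene and is larger than each of these medians, so this measure says little about how stable they are. The median for doxycycline in clone 6, 0.0061, was -0.011 with no expression minimum. In clone 7 the median, 0.022, was 0.00058 when the median of all genes was subtracted. Rescaling changed the sign of 1 member for doxycycline in clone 7 (Wars) and of 3 in the clone comparison without doxycycline (Cebpb, Phgdh and Ppp1r15a). Subtracting the median changed 4 (Aars, Calr, Slc7a5 and Wars) and 1 (Atf3), all with a log2 ratio of at most 0.032 in size. No paired analysis was possible because the table gives 1 value per group, and for the same reason no replicate could be left out. The precision, a median SE of about 0.28 to 0.30 on the log2 scale, limits what could be seen. At that SE a 95% interval reaches about 1.5-fold on either side, before any adjustment over genes. Chac1 and Xbp1, at ratios of 0.473 and 0.646 between the lines without doxycycline, were not called (q = 0.285 in the authors' deposited table). Changes well above 1.5-fold in a member could thus go uncalled.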

Other observations

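Of the 146 tested genes of the wider pathway, 0 and 1 had p-values under 0.05 before adjustment for doxycycline in clone 6 and clone 7, against 1.08% and 0.108% of all genes, and 3 and 6 for the lines without and with the drug, against 6.59% and 7.9%, in the authors' deposited table. Of those not called, 5 had such p-values in the authors' deposited table, and these were picked out after their values were seen. Ero1l, the oxidase that supplies disulfide bonds in the ER, was at 13.5 against 20.2 FPKM in clone 6 and clone 7 with doxycycline (p = 0.01005, q = 0.402 in the authors' deposited table) and at 15.2 against 20.4 FPKM without it (p = 0.0323, q = 0.778 in the authors' deposited table). Slc38a2, a carrier of small neutral amino acids, was at 98.9 against 136 FPKM with doxycycline (p = 0.0135 in the authors' deposited table). Crebzf was at 10.5 against 15.6 FPKM and Map3k5 (ASK1), a stress kinase, at 3.63 against 2.35 FPKM with the drug (p = 0.00955 and p = 0.03955 in the authors' deposited table). In clone 7, Ddit4, which restrains growth signalling under stress, had levels of 43.9 and 65.8 FPKM with and without doxycycline (p = 0.01175, q = 0.444 in the authors' deposited table).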
